A study of Mus musculus with 18 samples.

Results

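The genes described here are 57 developmental transcription factors of the non-Hox homeobox and Pax classes, taken as a list by name out of 21887 coding genes on the autosomes, X and Y: 6 Dlx, 9 Pax, 7 Lhx, 8 Nkx, 6 Irx, Six2, Six3 and Six6, 2 Msx, 2 Meis and Barx1, and 13 genes best known from head and brain patterning (Pitx, Otx, Emx, En, Gbx, Gsx and Gsc). H3K4me3, trimethylation of lysine 4 of histone H3, was mapped in mouse prospermatogonia, the male germ cells of the fetal testis, by CUT&RUN, in which an antibody guides a nuclease that cuts out the chromatin carrying the mark. The cells were positive for an Oct4-GFP reporter, were taken from fetuses at E17.5, were stored frozen, and gave 4000 nuclei to each library. The 3 genotypes were Tet1+/+ (WT), Tet1-/- (KO) and Tet1HxD/HxD (HxD, an allele changed in the HxD motif of the catalytic site and known as catalytically inactive), with 3 libraries each, described as biological replicates. TET1 is an enzyme that oxidises 5-methylcytosine, and the series asks what it does apart from that catalysis. The cells of all groups carried the reporter, every sample had the same batch label, and the sources used here do not give whether a replicate came from 1 embryo or from several. The matched IgG samples are not analysed here.

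Homeobox genes encode proteins that bind DNA through a homeodomain. Pax proteins bind through a paired domain, and some of them carry a homeodomain as well. Most of these genes are switched on in restricted parts of the embryo, such as forebrain, neural tube, eye, heart, kidney or jaw, and are silent in germ cells. At such genes H3K4me3 often lies together with the Polycomb mark H3K27me3, over long CG-rich stretches with little DNA methylation, a state called bivalent or poised. H3K27me3 and RNA were not measured in the data used here, so neither that state nor transcription can be read from these values.

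Promoters of 42 of the 57 genes were found in RefSeq (GRCm38.p6, the assembly of mm10), as the 250 bases before and 50 bases after the annotated start. Those of 4 genes are shown. The first 3 are among the genes described below with their values in every library, and the fourth has the fewest CG dinucleotides of the 42. Each is written 5′ to 3′ along its gene, with every CG dinucleotide in capitals. All 4 genes lie on the minus strand: Nkx6-1 at chr5:101664662-101664961, Dlx2 at chr2:71546705-71547004, Msx1 at chr5:37824536-37824835 and Lhx8 at chr3:154330511-154330810.
Nkx6-1: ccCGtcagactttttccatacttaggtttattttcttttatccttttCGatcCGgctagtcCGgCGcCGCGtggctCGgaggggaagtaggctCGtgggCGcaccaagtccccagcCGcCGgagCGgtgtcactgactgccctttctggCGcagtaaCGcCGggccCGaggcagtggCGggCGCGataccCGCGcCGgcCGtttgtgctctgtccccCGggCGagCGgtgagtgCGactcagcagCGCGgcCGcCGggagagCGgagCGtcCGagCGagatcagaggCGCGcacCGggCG
Dlx2: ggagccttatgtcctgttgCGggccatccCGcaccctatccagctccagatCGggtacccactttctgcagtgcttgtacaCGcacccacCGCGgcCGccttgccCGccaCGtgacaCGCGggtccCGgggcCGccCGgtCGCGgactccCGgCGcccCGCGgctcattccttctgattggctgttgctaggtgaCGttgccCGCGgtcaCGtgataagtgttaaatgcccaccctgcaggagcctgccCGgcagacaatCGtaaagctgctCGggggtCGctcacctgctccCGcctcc
Msx1: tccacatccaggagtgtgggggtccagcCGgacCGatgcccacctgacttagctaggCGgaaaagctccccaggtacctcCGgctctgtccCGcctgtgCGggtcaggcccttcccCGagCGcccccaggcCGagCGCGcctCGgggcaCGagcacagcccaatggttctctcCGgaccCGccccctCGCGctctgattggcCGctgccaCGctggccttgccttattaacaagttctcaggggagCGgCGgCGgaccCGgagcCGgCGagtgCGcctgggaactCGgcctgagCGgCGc
Lhx8: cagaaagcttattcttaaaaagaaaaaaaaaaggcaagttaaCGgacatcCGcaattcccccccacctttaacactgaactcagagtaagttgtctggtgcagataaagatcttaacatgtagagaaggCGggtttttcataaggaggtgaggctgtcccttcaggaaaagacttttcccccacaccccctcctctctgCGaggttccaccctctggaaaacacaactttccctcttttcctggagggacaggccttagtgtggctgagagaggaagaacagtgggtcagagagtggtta

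The Nkx6-1 promoter held 40 CG dinucleotides in its 300 bases, those of Dlx2 and Msx1 held 29 each, and that of Lhx8 held 4. Over the 42 promoters the median was 20, from 4 in Lhx8 to 50 in Barx1, and 22 of them (52.4%) held at least 20. Among the 17492 coding genes with a promoter in the same table, the median was 14 and 38.0% held at least 20. The letters TATAAA, searched on both strands, were present in 3 of the 42 windows (7.14%) and in 13.0% of all of them. The CG count bore little relation to the length of the mark in WT (Spearman rho 0.08 over 41 tested genes) or to the difference of KO or HxD from WT (rho -0.14 and -0.03). The CG count belongs to the annotated start, but the length belongs to the marked end of the gene, defined in the next paragraph. That end lay over 1 kb from the annotated start at 17 of the 42 genes, where sequence and length come from different places. These correlations are descriptions across genes, and genes of 1 library are not independent points.

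The measure throughout is breadth, the number of bases covered by the deposited peaks within 5 kb on either side of a gene's marked end. The marked end is whichever end of the RefSeq gene model had more covered bases within 1 kb over the 9 libraries, since the table of gene models carries no strand. Breadth is a length of called peaks and not a read count, so it moves both with where the mark lies and with how much of it could be called in a library. The 9 lists held 49624 to 128701 peaks. A fit was made for the 16000 coding genes with a peak within 1 kb of that end in at least 3 libraries, and 55 of the 57 genes were among them. Tet1 itself measured 2570, 2415 and 3315 bp in the WT libraries, 2732, 3331 and 4851 bp in KO and 3495, 3260 and 2580 bp in HxD, with overlapping groups, and a peak at its end can remain after a deletion elsewhere in the gene, so this does not check the labels. Of 18 germ cell marker genes, 13 to 17 were marked in each library. Ddx4, Dazl, Dppa3 and Pou5f1 were among those marked in all 9 libraries. Nanos3 was marked in 4, Nanos2 in 5, Mael in 6, Piwil4 and Tdrd9 in 7, and Piwil2 in none.

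Some libraries stood apart at these genes. KO replicate 1 had the shortest peaks (median 433 bp, against 641 to 793 bp in the others), and its breadth was the lowest of the 3 KO libraries at 51 of the 55 genes. HxD replicate 2 had the fewest peaks (49624), and its breadth was the lowest of the 3 HxD libraries at 36 of the 55. WT replicate 3 had the most peaks (128701, covering 108.9 Mb), and the median breadth of the listed genes was 5267 bp in it, against 4470 and 4386 bp in the other WT libraries. Counts over the list, and the values they move most, are therefore also given without these libraries.

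Nearly all of the listed genes carried a called stretch of H3K4me3 in fetal male germ cells, and over far longer stretches than most genes. A peak lay within 1 kb of the marked end of 54 or 55 of the 57 genes in every library, and 53 were marked in all 9. WT breadth averaged from 3099 bp at Pax8, a factor of thyroid and kidney development, to 8071 bp at Irx3, a patterning factor of neural tube and limb. The median over the 55 tested genes was 4749 bp, against 1887 bp over all 16000. Ranked among the 16000 genes of the same library, the median gene of the list stood at the 97.2, 97.6 and 97.8 percentile in the WT libraries. Irx3 measured 8240, 7291 and 8682 bp in WT, 4624, 8058 and 9010 bp in KO, and 8172, 7113 and 7675 bp in HxD. Otx1, a regulator of forebrain and inner ear, measured 7976, 7333 and 8013 bp in WT, 5448, 7280 and 8265 bp in KO, and 7019, 7205 and 8027 bp in HxD. These broadest genes had overlapping groups, with KO replicate 1 as the lowest library at both. The length came from several peaks rather than 1: the median gene had 3 peaks in the window in every library, and the longest of them had a median of 2389 to 3140 bp in WT.

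**Figure D1:**
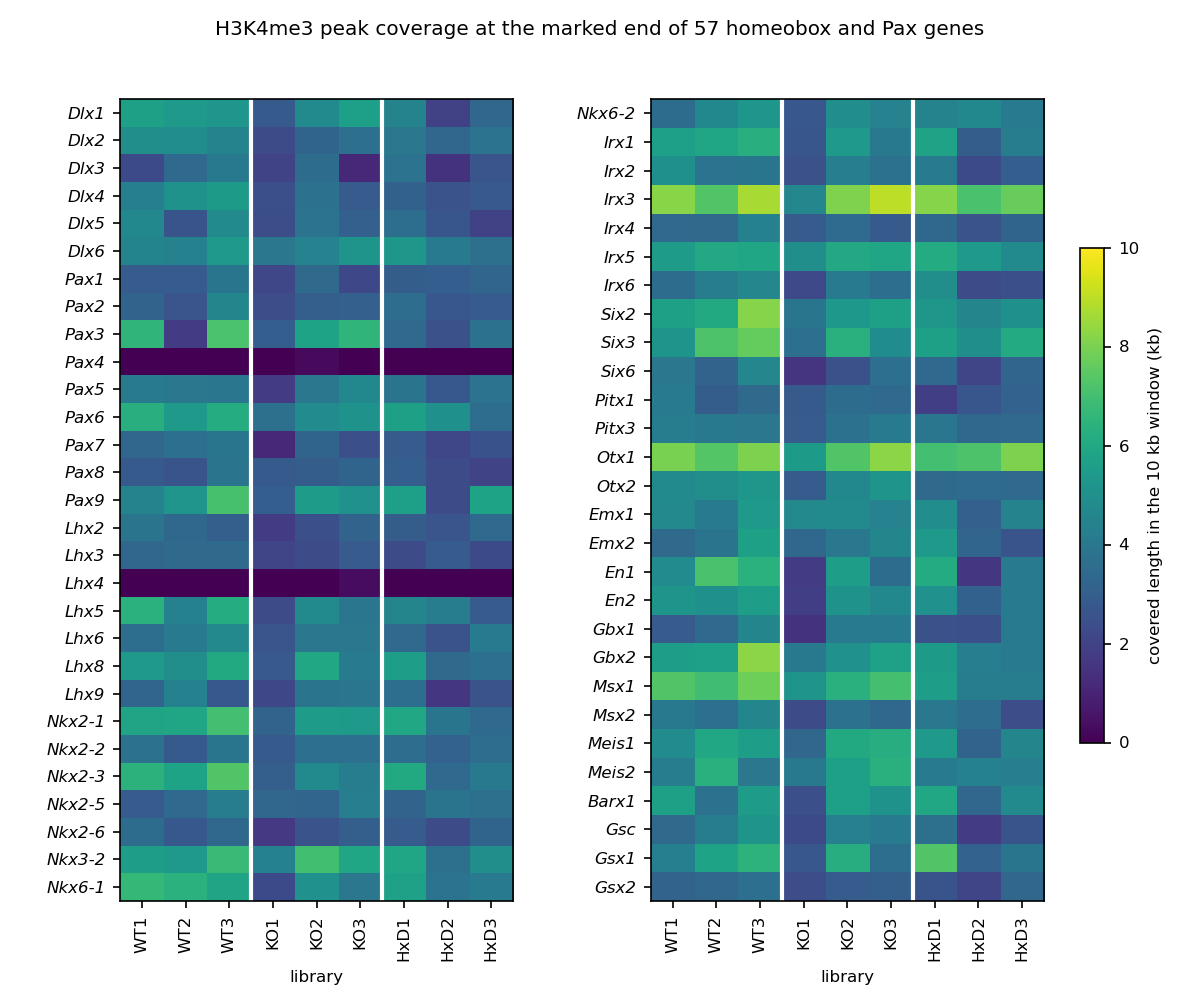
H3K4me3 peak coverage (kb, colour) in the 10 kb around the marked end of each of the 57 genes (rows) in each library (columns; WT, KO and HxD followed by the replicate number, white lines between genotypes). Pax4 and Lhx4 are dark throughout at the end that was measured, Irx3 and Otx1 are bright in most libraries, and KO replicate 1 and HxD replicate 2 are darker than the other libraries of their genotype at most genes (51 and 36 of the 55).

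At the measured end the exceptions were Pax4, a factor of pancreatic endocrine cells, and Lhx4, a factor of pituitary and motor neuron development. Pax4 had 236 bp of coverage in KO replicate 2 and 0 in the other 8 libraries. Lhx4 had 329 bp in KO replicate 3 and 0 elsewhere, at the 3′ end of its gene model. Around its annotated start, away from that end, Lhx4 was covered over 4323, 4044 and 4419 bp in WT, 3180, 4621 and 4824 bp in KO, and 5083, 3992 and 4656 bp in HxD. It was thus broadly marked there in all 9 libraries, with overlapping groups, and its zeros belong to the other end of the gene. Neither gene had enough marked libraries at the measured end to be tested, so the 55 are not all the genes of the list.

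In Tet1-/- cells, 53 of the 55 genes had a shorter mean breadth than in WT, yet no single gene passed the test. The share of all 16000 genes with a lower KO mean was 46.6%. The median difference over the 55 genes was -801 bp, beside 45 bp over all genes tested. By limma, 0 of the 55 had an adjusted p under 0.05, with the smallest at 0.123 for Dlx4, and over all genes 0.00625% were called narrower (1 gene) and 0% broader. At an unadjusted p under 0.05, 12 of the 55 were narrower (21.8%) and 0 broader, where 7.45% and 6.76% of all genes were. In 10 of the 55 every KO library lay below every WT library, and the share of such genes over all 16000 was 9.07%.

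Much of this depended on KO replicate 1. Without that library the lower genes numbered 41 of 55, beside 33.6% of all genes, and the median difference was -382 bp, beside 232.5 bp over all genes. The genes at an unadjusted p under 0.05 then numbered 4, which is 7.27% of the 55, against 4.07% of all genes. Without WT replicate 3 the lower genes numbered 45 (38.2% of all genes), the median was -593 bp, and 7 genes were narrower at that p, beside 4.66% of all genes. Library by library, 50 of the 55 genes (90.9%) lay below all 3 WT libraries in KO replicate 1, where 44.7% of all genes did. In KO replicate 2 they were 20 (36.4%), beside 18.2% of all genes, and in KO replicate 3 they were 21 (38.2%), beside 16.75%. The percentile rank of the median gene was 86.9, 96.2 and 92.0 in the 3 KO libraries, below the lowest WT value of 97.2 in each of them.

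The KO differences that were largest among genes with separated groups were at Nkx6-1, Nkx2-3, Dlx4, Irx1 and Dlx2. Nkx6-1 (gene model chr5:101659184-101664711), a factor of motor neuron progenitors and insulin-producing cells, measured 6643, 6383 and 5851 bp in WT and 2245, 5042 and 3949 bp in KO. Its mean was 6292 ± 404 bp in WT and 3745 ± 1410 bp in KO (SD, 3 libraries each), a difference of -2547 ± 736 bp (SE; adjusted p = 0.156 by limma). It was -1797 bp without KO replicate 1, and the other KO libraries still lay below every WT library. In HxD it measured 5723, 3822 and 4157 bp, again below WT (-1725 ± 736 bp, SE; adjusted p = 0.419 by limma). With each list cut to the length of the shortest, the KO difference was -1320 bp and the HxD difference 210 bp, the other direction. Around the CG-rich start shown above, the KO difference was 180 bp within 1 kb and -2727 bp from 1 to 5 kb on either side. Nkx2-3 (chr19:43612325-43615892), a factor of spleen and gut, measured 6434, 5792 and 7300 bp in WT and 3026, 4784 and 4204 bp in KO (-2504 ± 752 bp, SE; adjusted p = 0.169 by limma). In HxD it measured 6067, 3431 and 4047 bp, so HxD replicate 1 lay within the WT range. Its marked end is the 3′ end of a gene model shorter than the window. Centred on the annotated start the KO difference was -1520 bp. With lists of equal length it was -64.7 bp in KO and 446 bp in HxD, where it was -1994 bp with the lists as deposited.

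Dlx4 (chr11:95140447-95146294), a distal-less homeobox gene expressed in the branchial arches, had the smallest adjusted p of the list in each mutant. It measured 4312, 5115 and 5444 bp in WT, 2447, 3760 and 2873 bp in KO, and 3103, 2541 and 2799 bp in HxD. All 6 mutant libraries lay below the lowest WT library. The difference was -1930 ± 479 bp in KO (SE; adjusted p = 0.123 by limma) and -2143 ± 479 bp in HxD (adjusted p = 0.129). It was -1640 bp in KO without KO replicate 1 and -2006 bp in HxD without HxD replicate 2. Dlx2 (chr2:71543408-71546754), a factor of forebrain interneurons and jaw, measured 4951, 4900 and 4484 bp in WT, 2314, 3237 and 3658 bp in KO, and 3977, 3308 and 3800 bp in HxD. Its groups were likewise apart, by -1709 ± 475 bp in KO (SE; adjusted p = 0.146 by limma) and -1083 ± 475 bp in HxD (adjusted p = 0.435), the latter -546 bp with lists of equal length.

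Irx1, an Iroquois factor, measured 5656, 5895 and 6253 bp in WT and 2690, 5419 and 4046 bp in KO, and KO replicate 2 was close under the WT libraries. In HxD it measured 5747, 2936 and 4245 bp, the first of which lay within the WT range. Nkx2-1, the regulator of thyroid, lung and ventral forebrain, measured 5826, 5897 and 7019 bp in WT and 3169, 5507 and 5404 bp in KO, and 5976, 3892 and 3420 bp in HxD. Pax6, the regulator of eye and forebrain, measured 6253, 5415 and 6188 bp in WT and 3707, 4807 and 5126 bp in KO, and 5692, 5039 and 3572 bp in HxD. At these 3 genes KO replicate 1 lay below the other KO libraries, whose values were nearer to WT, and in HxD the groups overlapped with WT. Without KO replicate 1 the KO difference at Irx1 was -1202 bp instead of -1883 bp, and that at Nkx2-1 was -792 bp instead of -1554 bp. Pax7, a factor of muscle stem cells, measured 3309, 3652 and 3878 bp in WT, 1120, 3231 and 2460 bp in KO, and 2892, 2122 and 2534 bp in HxD, again with all 6 mutant libraries under WT. Its KO difference was -1343 bp, and -768 bp without KO replicate 1. The adjusted p of these genes in KO lay from 0.232 for Pax7 to 0.399 for Nkx2-1 by limma.

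The genes that went the other way, or least far, in KO were Meis2, Nkx2-5 and Pax3. Meis2, a partner of Hox proteins, measured 4237, 6349 and 3955 bp in WT and 4049, 5632 and 6343 bp in KO, a difference of 494 ± 728 bp (SE; adjusted p = 0.795 by limma) that was 48.3 bp without WT replicate 3. In HxD it measured 4093, 4377 and 4269 bp. Nkx2-5, the heart regulator, measured 2871, 3411 and 4256 bp in WT, 3287, 3246 and 4276 bp in KO, and 3203, 3856 and 3682 bp in HxD. At that end, the 3′ end of its gene model, the groups overlapped fully, with differences of 90.3 ± 484 bp and 67.7 ± 484 bp (SE). Around the annotated start of Nkx2-5 the differences were -689 bp in KO and -525 bp in HxD, so it went the other way only as measured at the marked end, and with lists of equal length they were -177 and 0.667 bp. Pax3, a factor of neural crest and muscle precursors, measured 6536, 1723 and 7184 bp in WT, so that WT replicate 2 alone lay below every KO library (3001, 5815 and 6560 bp). In HxD it measured 3434, 2498 and 3713 bp, all below the higher pair of WT libraries. The KO difference at Pax3 was -22.3 bp, 1040 bp without KO replicate 1 and 996 bp without WT replicate 3.

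**Figure D2:**
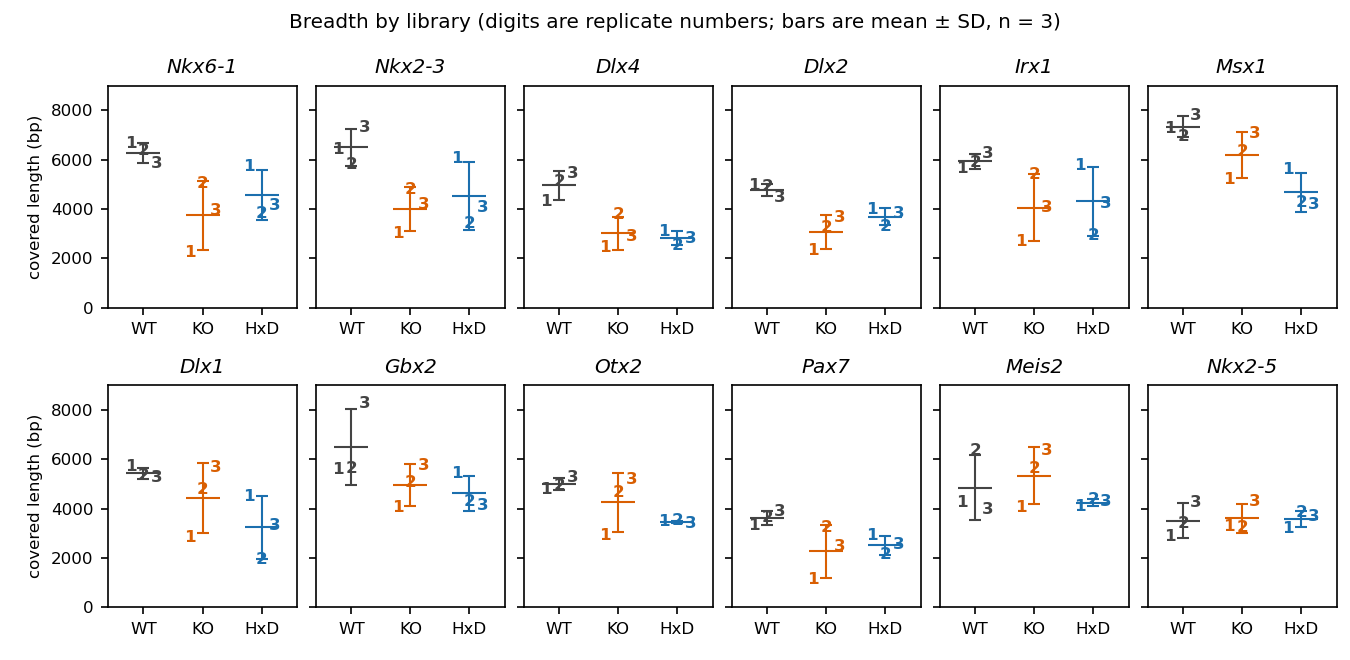
Breadth (bp) of 12 of the named genes in the 3 WT, 3 KO and 3 HxD libraries; digits are replicate numbers and bars are mean ± SD (n = 3). In Nkx6-1, Dlx4, Dlx2 and Pax7 all mutant libraries lie below all WT libraries, and in Meis2 and Nkx2-5 (the latter at its 3′ end) the groups overlap.

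In the HxD cells, 54 of the 55 genes had a shorter mean breadth than in WT, and again no gene passed the test. Over all genes 61.1% had a lower HxD mean, so the direction was common, but the median difference was -927 bp for the list and -125 bp for all genes. By limma 0 of the 55 were called (smallest adjusted p = 0.129, for Dlx4), and 0% of the 16000 were called in either direction. At an unadjusted p under 0.05, 14 of the 55 (25.5%) were narrower and 0 broader, where 9.04% (1446 genes) and 1.75% (280 genes) of all genes were. Every HxD library lay below every WT library at 13 of the 55 genes, beside 13.3% of all genes. The HxD and KO differences are taken from the same 3 WT libraries and are therefore not independent of each other.

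Without HxD replicate 2 the lower genes numbered 51 of 55 (56.5% of all genes were lower), the median difference was -597 bp (-73.6 bp over all genes), and 5 genes were narrower at an unadjusted p under 0.05 (9.09% of the 55, against 4.34% of all genes). Without WT replicate 3, 49 genes were lower (50.7% of all genes), with a median of -659 bp, and 6 were narrower at that p (5.24% of all genes). Without HxD replicate 3 there were likewise 6 (6.22% of all genes). Taken singly, 19 of the 55 genes (34.5%) lay below all WT libraries in HxD replicate 1, 47 (85.5%) in HxD replicate 2 and 34 (61.8%) in HxD replicate 3, beside 18.4%, 39.8% and 41.3% of all genes. By rank the median gene stood at the 94.8, 91.7 and 95.6 percentile, again below every WT library.

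Msx1 (chr5:37820491-37824585), a factor of limb and craniofacial growth, had the largest HxD difference. It measured 7286, 6935 and 7809 bp in WT, 5195, 6329 and 7068 bp in KO, and 5599, 4254 and 4198 bp in HxD. The HxD libraries were all below the WT libraries, whereas KO replicate 3 lay within the WT range. The HxD difference was -2660 ± 750 bp (SE; adjusted p = 0.224 by limma), of which -2429 bp lay from 1 to 5 kb, and it was -2445 bp without HxD replicate 2 and -2666 bp with lists of equal length. Dlx1, the neighbour and partner of Dlx2, measured 5688, 5356 and 5267 bp in WT, 2846, 4784 and 5657 bp in KO, and 4490, 1923 and 3301 bp in HxD (-2199 ± 743 bp in HxD, SE; adjusted p = 0.300 by limma). Of that difference, -1224 bp lay within 1 kb of the marked end and -975 bp from 1 to 5 kb. The HxD difference at Dlx1 was -1541.5 bp without HxD replicate 2 and -2356 bp with lists of equal length.

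Otx2, the regulator of forebrain and midbrain, measured 4774, 4925 and 5275 bp in WT, 2899, 4667 and 5177 bp in KO, and 3459, 3503 and 3403 bp in HxD. Its HxD libraries were the most alike of the named genes (SD 50.1 bp) and lay below WT (-1536 ± 575 bp, SE; adjusted p = 0.346 by limma), and 2 of the 3 KO libraries were near WT. With lists of equal length the difference was -447 bp in HxD and 253 bp in KO, where it was -744 bp as deposited and -69.3 bp without KO replicate 1. Gbx2, which sets the midbrain-hindbrain boundary with Otx2, measured 5572, 5637 and 8265 bp in WT, 4054, 5056 and 5731 bp in KO, and 5434, 4278 and 4138 bp in HxD. Six2, which maintains nephron progenitors, measured 5670, 6078 and 8181 bp in WT, 3882, 5335 and 5676 bp in KO, and 5295, 4546 and 5028 bp in HxD. At both genes WT replicate 3 was far above the other WT libraries. The HxD difference was -1875 bp at Gbx2 and -1687 bp at Six2, and without WT replicate 3 it was -988 and -918 bp. The KO difference at Six2 went from -1679 to -910 bp in the same way, and with lists of equal length Gbx2 differed by -695 bp in HxD and -614 bp in KO. The smallest HxD differences after Nkx2-5 were at Nkx2-2 and Nkx6-2, ventral neural tube factors, with -70.3 ± 447 bp and -72.7 ± 631 bp (SE). Nkx2-2 measured 3789, 2838 and 3890 bp in WT, 2813, 3662 and 3662 bp in KO, and 3574, 3143 and 3589 bp in HxD. Nkx6-2 measured 3547, 4659 and 5239 bp in WT, 2703, 4904 and 4421 bp in KO, and 4478, 4666 and 4083 bp in HxD. The groups overlapped at both, and the HxD difference was 122 and 306 bp without WT replicate 3.

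All 6 mutant libraries lay below all 3 WT libraries at 5 of the 55 genes, Dlx2, Dlx4, Pax7, Lhx3 and Nkx6-1, and at 5.86% of all genes (937). Lhx3, a pituitary and motor neuron factor, measured 3312, 3447 and 3468 bp in WT, 2092, 2285 and 2860 bp in KO, and 2314, 2893 and 2240 bp in HxD. It was measured at the 3′ end of its gene model and had a peak within 1 kb of that end in 3 libraries only. Around its annotated start it measured 3257, 3139 and 3054 bp in WT and 1766 to 2593 bp in the mutants, again apart. At 34 of the 57 genes the window also held the end of another gene model, a coding one at 7 (Dlx1, Pax4, Lhx9, Nkx6-2, Pitx3, Otx1 and Gbx2), so covered bases there can belong to the neighbour. Of the 42 genes with a RefSeq promoter, 25 had their marked end within 1 kb of the annotated start. Centred on the annotated start instead, 40 of 42 genes were lower in KO (median -775 bp) and 40 of 42 in HxD (median -1082 bp).

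Family by family, the mean breadth was lower than in WT at nearly every gene in each mutant with all libraries included, and no gene passed the test. The 6 Dlx genes form 3 neighbouring pairs, 18.6 to 26.2 kb apart with windows that do not overlap, and all 6 were lower in KO (median -1007 bp) and in HxD (median -1167 bp). Their median rank lay from the 97.1 to the 98.1 percentile in WT, from 80.4 to 92.3 in KO and from 83.2 to 92.9 in HxD, without overlap. The 8 tested Pax genes were all lower, by a median of -660 bp in KO and -834 bp in HxD, but their WT ranks of 90.3 to 93.7 overlapped those of KO (83.9 to 91.5) and HxD (83.5 to 94.3). Of the 6 tested Lhx genes, LIM-homeodomain factors of limb, forebrain and gonad, all were lower, with medians of -973 bp and -904 bp. Lhx8, with the CG-poor start shown above, measured 5362, 4939 and 6084 bp in WT and was broader there than the median gene of the list. Lhx9, which is needed for the early gonad, measured 3281, 4386 and 2765 bp in WT, 2181, 3855 and 3918 bp in KO, and 3627, 1596 and 2567 bp in HxD, with overlapping groups.

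Among the 8 Nkx genes 7 were lower in each mutant, with medians of -637 bp and -749 bp. The 6 Irx genes were all lower, with medians of -776 bp and -800 bp. Irx5 had the smallest KO difference of them (-213 ± 650 bp, SE), and that of Irx3 was -840 ± 1156 bp with all libraries and 463 bp without KO replicate 1. The 3 Msx and Barx genes were lower as well, with medians of -971 bp and -794 bp. Six2, Six3 and Six6 had the largest family median in KO, -1679 bp, and -1091 bp in HxD. The 13 head and brain genes were all lower in each mutant, with medians of -710 bp and -773 bp. Emx2, which is also needed for the urogenital system, was among them with differences of -351 ± 736 bp and -577 ± 736 bp (SE). The 2 Meis genes, Meis1 and Meis2, were the family least like the rest: their median was 115 bp in KO and -831 bp in HxD, and their WT ranks of 95.1 to 99.7 overlapped those of KO, 96.0 to 99.3. Without KO replicate 1 the lower genes in KO numbered 5 of 6 Dlx (median -736.5 bp), 6 of 8 Pax (-363 bp), 5 of 6 Lhx (-499 bp), 4 of 8 Nkx (-131.5 bp), 4 of 6 Irx (-252 bp), 2 of 3 Msx and Barx (-555 bp), 12 of 13 head and brain genes (-107 bp), all of Six2, Six3 and Six6 (-1079 bp) and 0 of 2 Meis (915 bp). Without HxD replicate 2, 7 of 8 Pax, 12 of 13 head and brain and 2 of 3 Msx and Barx genes were lower in HxD, with family medians from -355 bp in Nkx to -1048 bp in Dlx.

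**Figure D3:**
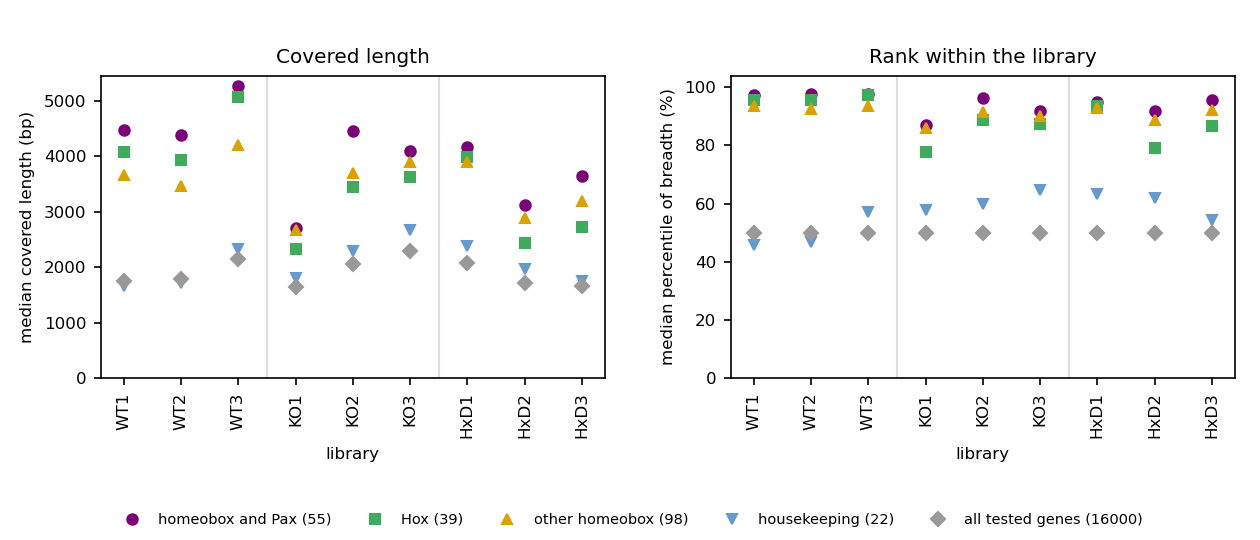
Median breadth (bp, left) and median percentile rank of breadth among the 16000 tested genes of the same library (right) for the 55 homeobox and Pax genes, the Hox genes, the other homeobox genes, housekeeping genes and all tested genes, by library. On the right the homeobox and Pax genes lie from 97.2 to 97.8 in WT and from 86.9 to 96.2 in the mutants.

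Most of the covered length by which the mutants differed lay in the flanks of the marked stretch, from 1 to 5 kb, and little of it within 1 kb. The flanks are also the longer part of the window, so bp values of the segments do not compare equal lengths. Within 1 kb of the marked end, the median difference over the 55 genes was -94.7 bp in KO, with 35 lower, beside 41.4% of all genes, and 2 of the 55 narrower at an unadjusted p under 0.05, beside 5.14%. In HxD it was -104 bp, with 39 lower, beside 49.8% of all genes, and 3 of the 55 at that p, beside 5.64%. From 1 to 5 kb, 52 of the 55 were lower in KO and 54 in HxD, beside 49.3% and 66.7% of all genes, with medians of -691 bp and -830 bp against 0 and -87.0 bp. In that segment 16 genes (29.1%) in KO and 14 (25.5%) in HxD were narrower at an unadjusted p under 0.05, where 6.36% and 8.31% of all genes were, and 0 were called by limma (smallest adjusted p 0.223 and 0.227). Over all genes limma called 25 narrower (0.156%) and 5 broader (0.0312%) in KO, and 23 narrower (0.144%) and 0 broader in HxD, in the same segment. Without KO replicate 1, 40 of the 55 were lower in KO from 1 to 5 kb (median -395 bp) and 23 within 1 kb (median 23.2 bp). Without HxD replicate 2 they were 49 (median -544 bp) and 30 (median -47.7 bp) in HxD.

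**Figure D4:**
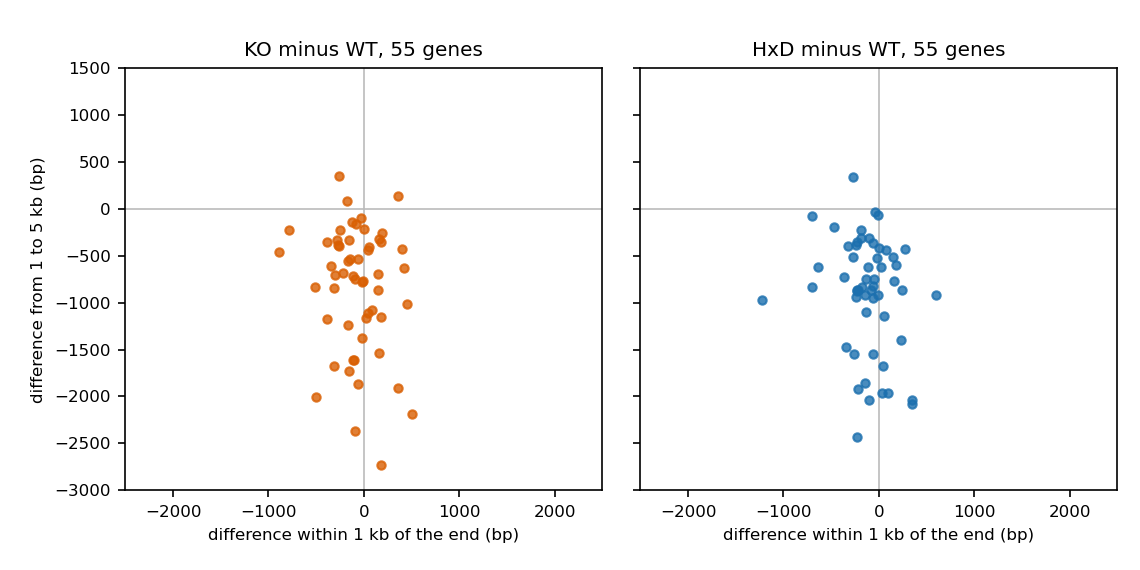
Difference from WT in covered bases within 1 kb of the marked end (horizontal, bp) and from 1 to 5 kb on either side (vertical, bp), 1 point per tested gene, for KO (left) and HxD (right). Most points lie below 0 on the vertical axis (52 of 55 in KO, 54 in HxD) and are scattered on both sides of 0 on the horizontal axis.

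For the 42 genes with an annotated start, the cover was compared on both sides. Upstream from 1 to 5 kb the mean cover was 1700 ± 145 bp in WT libraries, 1270 ± 403 bp in those of KO and 1183 ± 299 bp in those of HxD (SD, 3 libraries each). Every mutant library lay below every WT library there, the nearest being KO replicate 2 with 1585 bp against 1604 bp in WT replicate 2. Downstream from 1 to 5 kb it was 2082 ± 235 bp, 1645 ± 404 bp and 1610 ± 335 bp, and the groups overlapped, with 1909.5 bp in KO replicate 2 and 1945 bp in HxD replicate 1 against 1909 bp in WT replicate 2. Without KO replicate 1 the KO difference was -203 bp upstream and -204 bp downstream, instead of -430 and -437 bp. Without HxD replicate 2 the HxD difference was -364 and -305 bp, instead of -517 and -472 bp. Within 1 kb it was 1584 ± 119 bp, 1543 ± 207 bp and 1479 ± 126 bp, closer together than the spread of the libraries. In the first 250 bp downstream of the start the order was the other way round, with 78.7 ± 6.68% of bases covered in WT, 86.5 ± 7.50% in KO and 84.6 ± 8.54% in HxD, and these ranges overlapped. The coverage was wide on both sides in every genotype, and was still 35.2 ± 5.59% in WT at 4625 bp downstream against 22.9 ± 7.54% in KO and 22.6 ± 5.45% in HxD.

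**Figure D5:**
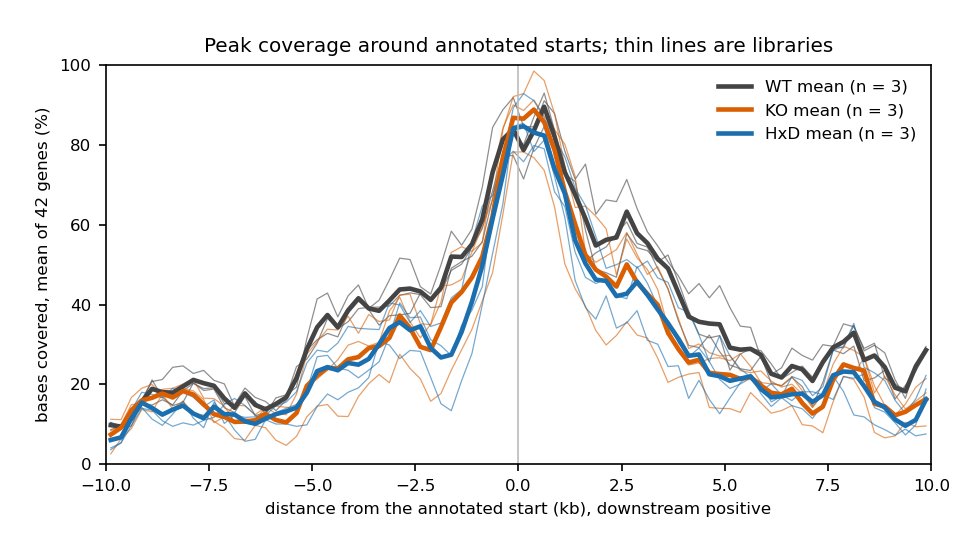
Share of bases covered by peaks (%) in 250 bp bins from 10 kb upstream to 10 kb downstream of the annotated start, averaged over 42 genes; thick lines are means of 3 libraries and thin lines single libraries. The WT line lies above the mutant lines over most of both flanks (63.3% against 50.1% in KO and 42.7% in HxD at 2625 bp downstream). Single libraries of WT and KO overlap in that bin (57.8% in WT replicate 1, 58.0% in KO replicate 2). Just upstream of the start the 3 lines come close (83.9, 86.7 and 84.1% in WT, KO and HxD). In the first bin downstream the WT line is the lowest (78.7, 86.5 and 84.6%).

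Between KO and HxD cells no gene of the list passed the test, and the direction depended on the libraries. Of the 55, 26 were lower in KO than in HxD and 29 higher, and the median difference was 17.7 bp, beside 166.5 bp over all genes, of which 28.2% were lower in KO. By limma 0 of the 55 and 0% of all genes were called, and 0 of the 55 passed an unadjusted p under 0.05, where 0.219% of all genes were narrower and 2.69% broader in KO. No gene of the list had separated groups (0.713% and 7.19% of all genes had every KO library lower or higher). The median was 539 bp without KO replicate 1 and -166 bp without HxD replicate 2. With KO replicate 1 left out, 47 of the 55 were higher in KO than in HxD, beside 86.4% of all genes. At an unadjusted p under 0.05, 7 were then broader in KO and 0 narrower, beside 7.96% and 0.0938% of all genes, and the smallest adjusted p by limma was 0.580, for Msx1. Without HxD replicate 1 there were 2 broader (5.29% of all genes) and without WT replicate 2 there was 1 (2.59%). The genes with the highest KO breadth relative to HxD were Pax3 (1910 ± 1184 bp, SE), Msx1 (1514 ± 750 bp) and Dlx1 (1191 ± 743 bp). Those with the lowest were Nkx6-1 (-822 ± 736 bp), Six3, the forebrain and eye factor (-632 ± 844 bp), and Dlx2 (-625 ± 475 bp). Without KO replicate 1 the first 3 were 2972.5, 2015 and 1982.5 bp, and the last 3 were -71.8, 12.0 and -247.5 bp, close to 0 at Nkx6-1 and Six3. Six3 measured 5179, 7225 and 7642 bp in WT, 3670, 6341 and 4865 bp in KO, and 5684, 4964 and 6125 bp in HxD, with overlap between all groups. Around its annotated start it was apart from WT in both mutants, with 6366 to 7734 bp in WT, 3600 to 5962 bp in KO and 3132 to 5563 bp in HxD. The adjusted p was 1 for these 6 genes by limma, and with standard errors of 475 to 1184 bp neither the size nor the direction of these differences is settled.

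Because WT libraries had more peaks, the lists were also compared after 2 kinds of adjustment. First the libraries were centred: all genes of a library were shifted by the same number of bp, to a common mean over all tested genes. This is not a proportional scaling, and broad and narrow genes moved alike. With it 53 of the 55 genes were lower in KO (median -837 bp, 49.4% of all genes lower) and 52 in HxD (median -780 bp, 48.2%). Under this shift limma called 4 of the 55 narrower in KO, Dlx4 (-1966 ± 397 bp, SE; adjusted p = 0.0180), Nkx2-3 (-2540 ± 583 bp; 0.0267), Dlx2 (-1745 ± 402 bp; 0.0271) and Nkx6-1 (-2583 ± 596 bp; 0.0272), beside 1.76% of all genes. In HxD it called Dlx4 alone (-1996 ± 397 bp; adjusted p = 0.0361 by limma), beside 0.269% of all genes. With lists cut to equal length, by keeping the best peaks of each, 40 of 54 genes were lower in KO (median -602 bp) and 40 of 54 in HxD (median -549 bp). Over all genes of those lists 31.2% were lower in KO (median 333 bp) and 38.6% in HxD (median 176 bp). Limma then called 0 of the 54, with 0.227% of all genes called narrower and 2.36% broader in KO, and 0% and 0.013% in HxD. With lists of equal length Dlx4 differed by -1348 bp in KO and -1597 bp in HxD, while Nkx2-3 and Nkx6-1 in HxD and Otx2 in KO turned to the other direction, as given above.

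The same values were taken for related genes, for other genes with long marked stretches and for genes that are active in every cell. The 39 Hox genes, the clustered homeobox genes of the body axis, were lower in KO at 36 (median -929 bp) and in HxD at 39 (median -1259 bp). The 98 tested homeobox genes outside both lists were lower at 69 (median -330 bp) and 76 (median -457 bp). Among 1543 genes outside the list with a mean breadth of at least 3200 bp, the medians were 52.0 bp in KO and -197 bp in HxD. Their median rank was from the 94.4 to the 94.9 percentile in every library. These genes were chosen by their mean breadth over the same libraries, mutants included. A high and even rank follows largely from that choice, and genes narrower in the mutants were less likely to enter. The limit is near the lower quartile of the listed genes and was set after seeing the data. Hox and other homeobox genes of that breadth were not taken out of this set. The 22 housekeeping genes were lower at 5 in KO (median 422 bp) and 10 in HxD (median 59.0 bp). The KO medians without KO replicate 1 were -472 bp for Hox genes (30 of 39 lower), -29.1 bp for the other homeobox genes (52 of 98), 383 bp for the broad genes and 638 bp for the housekeeping genes. Without HxD replicate 2 the HxD medians were -800.0 bp (38 of 39), -337.5 bp (71 of 98), -54.7 bp and 130.0 bp. These are counts and medians, with no test between lists.

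Genes that mark somatic cells of the testis had lower mean breadths as well. Of the tested Sertoli cell markers, 9 of 11 were lower in KO (median -448 bp) and 10 of 11 in HxD (median -644 bp). Of the Leydig and interstitial markers, 10 of 12 (median -706.5 bp) and 11 of 12 (median -459.5 bp) were lower, and of the endothelial and blood markers 6 of 7 (median -435 bp) and 5 of 7 (median -403 bp). The lower markers in KO without KO replicate 1 were 6 of 11, 9 of 12 and 5 of 7, with medians of -169, -321 and -313 bp. Without HxD replicate 2 those in HxD were 10 of 11, 9 of 12 and 5 of 7, with medians of -474, -257 and -271 bp. The summed breadth of the 14 Sertoli markers was 35.3 to 41.1 kb in WT, 26.2 to 36.7 kb in KO and 24.2 to 34.8 kb in HxD, and KO replicates 2 and 3 (35.8 and 36.7 kb) lay within the WT range. That of the 15 Leydig and interstitial markers was 32.6 to 47.8 kb, 20.0 to 36.6 kb and 26.3 to 39.0 kb, and that of the 12 endothelial and blood markers 12.2 to 16.4 kb, 7.89 to 12.2 kb and 9.38 to 12.7 kb. The defining genes Star, Cyp17a1 and Hsd3b1 (steroid synthesis), Ptprc and Csf1r (blood cells), Tie1 (endothelium) and Gata1 had no peak within 1 kb of the measured end in any library, whereas Sox9, Amh, Wt1, Insl3 and Pdgfra did in all 9. Within 5 kb Tie1, which was not tested, did have coverage. It measured 909, 1190 and 1191 bp in WT, 0, 560 and 0 bp in KO, and 650, 469 and 0 bp in HxD. Star had 356 bp in WT replicate 3 alone, and the others of these unmarked genes had no coverage. The 18 germ cell markers summed to 33.4 to 41.4 kb in WT, 32.5 to 53.2 kb in KO and 30.5 to 44.6 kb in HxD, with 7 of 17 tested lower in KO (median 95.7 bp) and 9 of 17 in HxD (median -76.3 bp). Without KO replicate 1, 1 of the 17 was lower in KO (median 327 bp), and without HxD replicate 2, 9 were lower in HxD (median -31.2 bp). H3K4me3 can mark promoters in cells that do not transcribe them, so these values do not count cells. The part of somatic cells in the differences at the homeobox and Pax genes was not tested, and in bulk libraries fewer cells with a mark cannot be told apart from less of it per cell.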

How the data were processed

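H3K4me3 CUT&RUN peak lists of 9 libraries were used, 1 list per library, so the authors called peaks per sample. The submitters' processing notes name MACS2 2.1.0, Bowtie2 2.5.0, Trim Galore, deepTools 3.5.1, bedtools 2.27.1 and SAMtools 1.16.1, with mm10 as the build. Settings and the control of the calls: not given in the sources used here. Each deposited peak carries a score, a fold enrichment as a linear ratio, and p and q as −log10. The authors' −log10 q was used to rank and filter peaks within a list, and the score and fold were not used in any comparison. The depth in reads is unknown.

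Breadth was computed from the coordinates in Python 3.11.15 with numpy 2.4.6 and pandas 2.3.3, with gene models from the RefSeq table of GRCm38.p6. Genotypes were compared in R 4.3.3 with limma 3.58.1, as a linear model on bp over all 9 libraries with trended moderation, two-sided tests and Benjamini-Hochberg adjustment over 16000 genes at a threshold of 0.05. Adjusted p-values are from this fit unless the sentence names centred libraries, equal lists, a left-out library or a segment, which were fitted the same way. The fit was also run on simulated data with noise drawn independently for each gene and library. Those data held no library-wide shifts of the kind seen here, and no result given here rests on them. P-values measure the spread between 3 libraries per genotype. The listed genes, the comparison lists and the marker lists were chosen with earlier results of these data known, so no test over a list was made. Values in every library are given for the 8 genes with the largest KO and the 8 with the largest HxD difference among those with separated groups, the 3 that went furthest the other way or, where fewer did, differed least, the 3 highest and 3 lowest in KO relative to HxD, the 3 broadest in WT and the genes not tested. Lhx3, Lhx8, Lhx9, Emx2 and Irx5 were named outside this rule, after their values were seen. Of the marker genes, those given are defining genes of each list. Promoter sequences are from RefSeq, for 42 of the 57 genes. The alternatives tried were windows of 2 and 10 kb, peaks with a −log10 q of at least 4, lists of equal length, libraries centred on a common mean, other filters (none, or a peak in at least 6 libraries), annotated starts, log2(bp + 100), a replicate block and leaving out libraries.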

Additional observations from a re-analysis of the deposited data

How the results depend on the processing

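The KO and HxD medians were below 0 under every alternative that gave a median in bp (over 42 to 57 genes, by setting; on the log2 scale only counts were taken, 52 lower in KO and 54 in HxD). Promoters called narrower by limma over all genes in KO, 1 as reported, numbered 0 with a 2 kb window, 28 with 10 kb, 3 with peaks at a −log10 q of at least 4, 35 with lists of equal length, 281 with libraries centred, 110 with no filter, 0 with a peak in at least 6 libraries, 4 at annotated starts, 0 on the log2 scale and 0 without KO replicate 1 and HxD replicate 2 together, a setting chosen after seeing the data. Those called broader numbered 2 with 10 kb, 364 with equal lists, 183 centred, 8 with no filter and 1 at annotated starts. In HxD the calls were 10 narrower with 10 kb, 2 broader with equal lists, 43 narrower and 12 broader centred, and 100 narrower and 2 broader with no filter. Listed genes higher in KO, 2 as reported, numbered 14 with 2 kb, 1 with 10 kb, 14 with equal lists, 4 with no filter and 14 without both libraries. In HxD, 1 as reported, they numbered 9, 0, 14, 1 and 4, and 2 with the stricter q, 3 centred and 2 at annotated starts, and the median was -1673 bp with 10 kb. Between KO and HxD the median was -164 bp centred, and 16 genes were lower without both libraries. The cause of these shifts was not tested.

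Leaving out 1 library at a time, the medians ranged from -1102 to -382 bp in KO, from -1262 to -597 bp in HxD and from -201 to 539 bp between KO and HxD. Lower genes numbered 41 to 54, 49 to 54 and 8 to 37, and higher genes 1 to 14, 1 to 6 and 18 to 47. Promoters called narrower numbered 0 to 2 in KO, 0 to 22 in HxD (22 without KO replicate 1) and 0 between them, and those called broader 0 to 3, 0 to 3 and 0. Same-numbered libraries did not deviate together (correlations from -0.24 to 0.08), so the replicate number was not taken as a pairing. With it as a replicate block, 0 promoters were called in either mutant. At an unadjusted p under 0.05, 10 of the 55 genes were then narrower in each mutant, beside 6.69% of all genes in KO and 7.75% in HxD. Without the block they were 12 in KO and 14 in HxD, beside 7.45% and 9.04% of all genes.

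The limits are those of called peaks. Read depth is unknown, and a missing peak does not show a missing mark. With 3 libraries a group, no single gene of the list passed the test without centring the libraries on a common mean. The marked end was over 1 kb from the annotated start at 17 of 42 genes.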
